A study of Mus musculus with 16 samples.

Results

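The regions described here are the stretches of mouse autosomes that lay outside every lamin A domain of cardiac myocytes, called gaps below. They were read from the lamin A interval lists of 5 libraries of wild-type (WT) myocytes, isolated from the heart by Langendorff perfusion. A gap is at least 100 kb long, touches no lamin A interval (island) in any of the 5 lists, and lies between the lowest island start and the highest island end of chromosomes 1 to 19. There were 277 gaps among 747 uncovered stretches of any length, set against 2598 autosomal islands. The series also holds 5 IgG libraries, not analysed here, and END-seq peak lists, which mark the ends of DNA double-strand breaks, from 6 libraries of myocytes, 3 of them WT and 3 of the genotype Myh6-Cre:LmnaF/F (cKO). There the promoter of the myocyte gene Myh6 drives Cre, which deletes floxed Lmna; an effect of Cre alone cannot be told apart from that of the deletion, since no group has Cre with intact Lmna. The labels used here give no strain, age or sex, and do not state that libraries of a group came from different animals. The spread between them may therefore be technical.

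Lamin A and lamin C, the products of Lmna, form part of the meshwork that lines the inside of the nuclear envelope. Chromatin in contact with it is organised in long lamina-associated domains, which are mostly gene-poor, late-replicating and silent. The stretches between such domains are known from other cell types to hold most active genes. Lists of islands give no transcription, so neither gene activity nor the purity of the myocytes was measured here.

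The 277 gaps added up to 787 Mb, or 34.4% of the 2289 Mb between the outermost islands. They were unequal in length, and a few long ones held most of the sequence. The median gap was 811 kb, the lower quartile 197 kb and the upper quartile 3.86 Mb. The 20 gaps of 10 Mb or more held 38.2% of the gap length, and a further 35 gaps of 5 to 10 Mb held 31.6%. At the other end, 72 gaps of 100 to 200 kb held 1.27%. The longest 31 gaps, taken in order of size, held 50% of the gap length, and each of them was at least 7.76 Mb long. The limit of 100 kb set the number of gaps far more than their sum, because the 470 uncovered stretches under 100 kb added only 23.8 Mb. Just inside the limit were gaps of 100.001 kb and 101.001 kb on chromosome 14 and of 101.601 kb on chromosome 4. Just outside it were stretches of 99.601 kb on chromosomes 2 and 15 and of 98.801 kb on chromosome 13. Within any one list, neighbouring islands were at least 40201 bp apart, in all 5 lists alike, so shorter uncovered stretches inside a domain of 1 library do not appear.

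**Figure D1:**
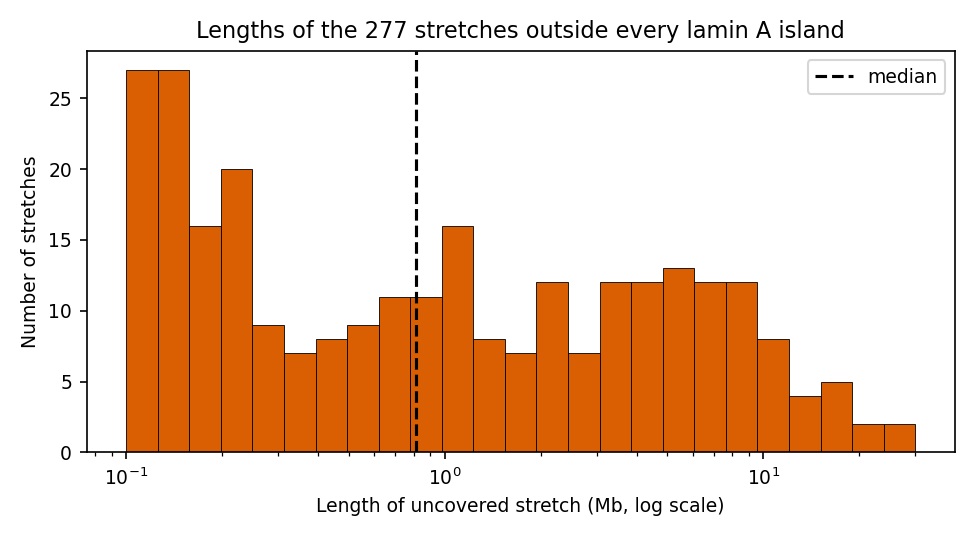
Number of gaps (vertical axis) by length in Mb on a log scale (horizontal axis), for the 277 gaps. The dashed line is the median of 0.811 Mb, and gaps range from 0.1 to 28.4 Mb.

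The longest gap lay in the far part of chromosome 5, chr5:110116400-138471200 (GRCm39), and was 28.4 Mb long. Both of its edges were lone 200 bp windows called in WT 2 alone, with −log10 q values of 3.56 and 4.36. The next library came 5.32 Mb beyond the left edge and 7.07 Mb beyond the right one. Without WT 2 the gap grew to 40.7 Mb. It lies past the last island of at least 1 library, so it drops out when the span is narrowed to the part that all 5 lists reach.

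The second, chr2:151245400-176438000, was 25.2 Mb long and was bounded by WT 3 on both sides. Its left edge was also a lone window, but here the next libraries followed within 8.2 and 10.6 kb. These 3 islands, of WT 3, WT 4 and WT 5, nowhere overlapped and lay in a stretch of 10.8 kb. Past that stretch came another gap, of 363 kb. The right edge was an island of 15.4 kb in WT 3, with the next library 447.6 kb further out. The third, chr4:122379600-143295600, measured 20.9 Mb, and the fourth, chr11:62304000-82997000, 20.7 Mb. On chromosome 11 the edges were islands of 3.799 kb in WT 2 and 10.2 kb in WT 1. The next library followed 14.0 Mb to the left and 7.92 Mb to the right. The stretch covered by no library there was thus set by 2 small islands within a longer stretch that the other libraries did not cover.

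The fifth longest gap, chr14:19347400-36994800, was 17.6 Mb long. It ended on the right at an island of 3947 kb in WT 1 with a −log10 q of 33.0. Its left edge was a lone 200 bp window of WT 3 with a −log10 q of 2.07, and the next library came 82.8 kb further out. Chromosome 9 held 2 of the 10 longest, chr9:39744400-56372200 of 16.6 Mb and chr9:95128000-110776000 of 15.6 Mb. Their left edges were shared: 3 libraries came within 7.0 kb at the first, and 3 within 2.0 kb at the second. Their right edges were set by WT 2 alone, with the next library 19.3 and 3.21 Mb further out. Without WT 2 these gaps measured 35.9 and 18.9 Mb. The remaining 3 were chr11:104741400-120252400 of 15.5 Mb, chr2:23703000-39183400 of 15.5 Mb and chr13:34042200-46630800 of 12.6 Mb. That on chromosome 11 ended at an island of 153 kb in WT 3, and no other library had an island further out. The span of chromosome 11 thus reached that far through WT 3 alone. At the right edge of the gap on chromosome 2 all 5 libraries began within 50 kb, the nearest within 0.4 and 2.2 kb of WT 3. Its left edge was a lone 200 bp window of WT 2, with the next library 38.4 kb further out.

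Autosomes differed widely in how much of them lay in gaps. Chromosome 11 had the highest share, with 66.0% of its span in 10 gaps. Chromosome 9 followed with 58.9% in 15 gaps, chromosome 19 with 48.02% in 9, chromosome 14 with 46.9% in 28 and chromosome 18 with 44.1% in 8. The lowest were chromosome 8 with 2.20% in 6 gaps, chromosome 1 with 8.40% in 3 and chromosome 3 with 15.6% in 14. The other autosomes lay between 23.6% on chromosome 10 and 40.7% on chromosome 2. Chromosome 7 had the most gaps, 35, but they were short, with a median of 244 kb and 31.8% of the span. Chromosome 11 had few and long ones, with a median of 5.71 Mb (5712 kb).

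**Figure D2:**
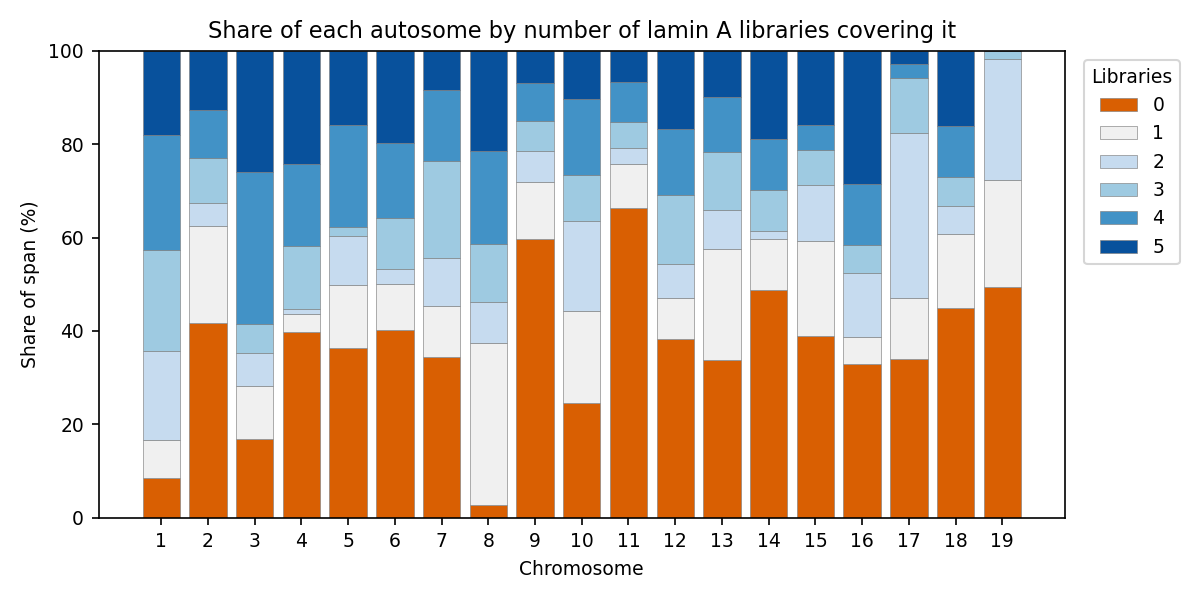
Share of the span of each autosome (vertical axis, %) covered by 0 to 5 lamin A libraries. The orange base is the sequence outside every island at any length, 66.2% on chromosome 11 and 2.66% on chromosome 8.

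The largest gap of each further chromosome was as follows. Chromosome 1 had its longest at 84720400 to 93849600 (9.13 Mb), and chromosome 3 at 98888200 to 106219400 (7.33 Mb). Chromosome 6 had 90194800 to 101599800 (11.4 Mb), chromosome 7 had 63721400 to 72332200 (8.61 Mb) and chromosome 10 had 3524800 to 11283800 (7.76 Mb). On chromosomes 12, 15 and 16 they were 103853800 to 113430200 (9.58 Mb), 77543400 to 89868000 (12.3 Mb) and 3263800 to 14169800 (10.9 Mb). On chromosomes 17, 18 and 19 they were 42704000 to 50749600 (8.05 Mb), 72886600 to 85098600 (12.2 Mb) and 54872800 to 61170400 (6.30 Mb). Chromosome 8 stood apart again, since none of its gaps reached 1 Mb.

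Gaps were unevenly spread along many chromosomes, and the part with the highest share differed between chromosomes. Each span was divided into 3 parts of equal length, the proximal one being nearest the centromere, which lies at the low coordinates of mouse chromosomes. Over all autosomes, gaps made up 26.1% of the proximal, 38.3% of the middle and 38.9% of the distal parts. The distal part was 94.8% gap on chromosome 5, 93.4% on chromosome 11, 84.2% on chromosome 15, 81.1% on chromosome 4 and 74.5% on chromosome 18. The highest part was not always far above the next. On chromosome 11 the middle part was 91.9% gap, and on chromosome 6 the distal and middle parts were 45.5% and 42.7%. It held no gap on chromosomes 14, 16 and 17, and 0.193%, 0.221% and 0.374% on chromosomes 1, 3 and 10. On chromosomes 16 and 17 the proximal part had the highest share of gaps, with 82.1% and 66.0%. On chromosome 14 the middle part did, with 79.8%. Of the 19 autosomes, 9 had their highest share in the distal part, 5 in the middle and 5 in the proximal one.

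These shares leave out what lies past the outermost island. The lamin A span of chromosome 7 ended at 108 Mb (GRCm39), while END-seq peaks of the same series reached 145 Mb on mm10. For chromosome 8 the values were 106 and 129 Mb, for chromosome 1 they were 178 and 195 Mb, and for chromosome 16 they were 88.9 and 98.1 Mb. They were 142 and 149 Mb for chromosome 6, 146 and 152 Mb for chromosome 5, and 178 and 182 Mb for chromosome 2. The builds differ, so the 2 ends are given only side by side. On every chromosome the distal part is that of the span, not of the chromosome, and any uncovered end beyond the last island is not counted as a gap. Sequence to which reads cannot be assigned would also appear as uncovered. No GRCm39 sequence was used here, and its part in the gaps was not tested.

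Each library on its own left more of the span uncovered than the gaps amount to. The uncovered share was 51.4% in WT 1, 76.7% in WT 2, 62.4% in WT 3, 50.3% in WT 4 and 57.7% in WT 5, a mean of 59.7% ± 10.7 (SD, n = 5). WT 2 was the least covered and WT 4 the most. The gaps common to all 5 made up 67.0%, 44.8%, 55.1%, 68.4% and 59.6% of what WT 1, WT 2, WT 3, WT 4 and WT 5 did not cover, a mean of 59.0% ± 9.59 (SD, n = 5). By the number of libraries covering a position, 35.4% of the span was covered by none and 15.4% by all 5. Positions covered by 1, 2, 3 and 4 libraries made up 14.0%, 9.94%, 10.3% and 14.9%. Every number of libraries from 0 to 5 thus took up a sizeable share. Sequence covered by 1 library alone amounted to 143 Mb for WT 1, 46.0 Mb for WT 2, 29.9 Mb for WT 3, 85.5 Mb for WT 4 and 15.7 Mb for WT 5. Without WT 1 the gaps grew by 145 Mb to 932 Mb, and without WT 5 by 16.7 Mb to 804 Mb.

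A library that played no part in choosing a gap can test whether the stretch is again uncovered. No library was held out from the gaps described so far, which were chosen with every list. For each library, gaps were therefore made by the same rule from the other 4, and the share of those gaps that the held-out library covered was set against its coverage of the rest of their span. WT 1 covered 15.2% inside and 71.6% outside. WT 2 covered 5.06% inside and 33.5% outside. WT 3 covered 3.11% inside and 56.7% outside. WT 4 covered 8.91% inside and 74.5% outside. WT 5 covered 1.83% inside and 64.2% outside. The length covered inside largely restates how far the gaps grew without that library. It was 141 Mb against a growth of 145 Mb for WT 1, and 41.6 against 49.8 Mb for WT 2. What the comparison adds is the contrast with coverage outside, for gaps made from 4 lists.

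All 5 libraries were lower inside, and the 2 sets of values did not overlap. Means were 6.81% ± 5.37 inside and 60.1% ± 16.4 outside (SD, n = 5), a difference of -53.3 ± 14.7 percentage points (exact sign-flip permutation test over 5 libraries, two-sided, p = 0.062, the smallest p that 5 libraries allow). The 5 differences share libraries and are not fully independent, and they do not test the gaps chosen with every list. Coverage outside was 4.73 times that inside for WT 1, the lowest ratio, and 35.1 times for WT 5, the highest. A held-out library left 59.7% (WT 1) to 77.3% (WT 5) of the gaps made from the other 4 wholly untouched. WT 1, WT 3, WT 4, WT 5 and WT 2 covered 14, 12, 5, 2 and 0 of these gaps completely.

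**Figure D3:**
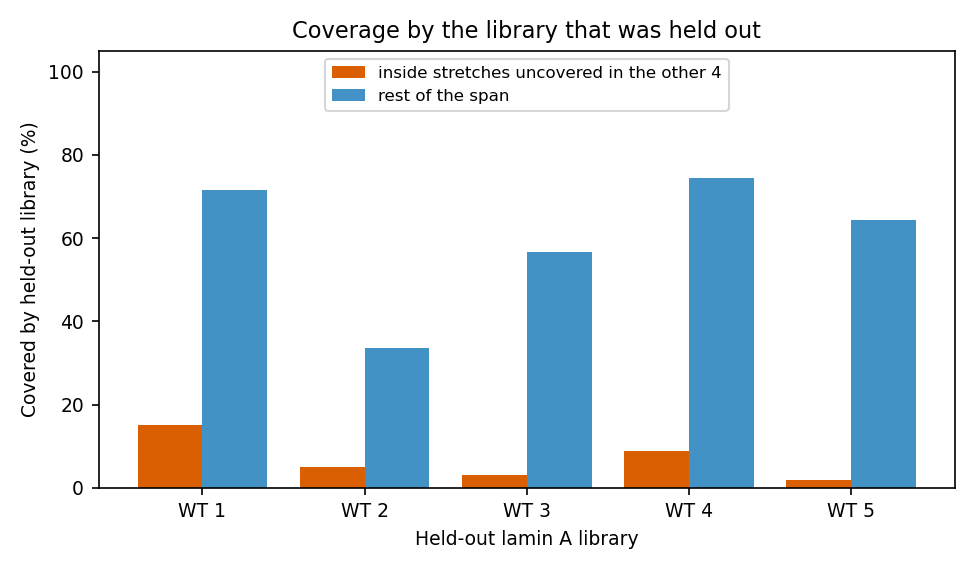
Share covered by each held-out lamin A library (vertical axis, %), inside gaps made from the other 4 libraries (orange) and in the rest of the span (blue), with 1 pair of bars for each library. Inside values range from 1.83% to 15.2% and outside values from 33.5% to 74.5%.

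The held-out library covered gaps of 5 Mb or more less than those of 2 to 5 Mb in 5 of 5 libraries, and less than those of 100 to 500 kb in 3 of 5. Gaps of 100 to 500 kb were covered at 7.42% ± 5.55, those of 500 kb to 2 Mb at 10.4% ± 6.69, those of 2 to 5 Mb at 9.78% ± 7.31 and those of 5 Mb or more at 5.59% ± 5.17 (SD, n = 5 each). Deeper than 1 Mb from an edge, coverage was lower than at 200 kb to 1 Mb in 5 of 5 libraries, and lower than within 50 kb of an edge in 3 of 5. It was 7.19% ± 4.76 within 50 kb of the nearer edge, 9.25% ± 6.16 at 50 to 200 kb, 9.36% ± 6.91 at 200 kb to 1 Mb and 5.58% ± 4.98 deeper than 1 Mb (SD, n = 5 each). These differences within libraries are a description, noted after the values were seen, with no test between the classes. Libraries entered gaps in different ways. In WT 2, 88.5% of the entered length came from islands lying wholly inside a gap, 126 of them, and in the other 4 libraries 8.18% to 28.5% did. Their remaining length was that of islands reaching across a gap edge.

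Held-out coverage was lower inside than outside in 92 of 95 combinations of library and chromosome, and the 3 exceptions were all on chromosome 8. There, WT 2 covered 38.4% of the gaps made from the other 4 and 34.6% of the rest. WT 3 covered 79.5% and 61.1%, and WT 4 covered 89.4% and 69.6%. WT 1 and WT 5 were lower inside on chromosome 8 too, with 0.865% and 0.389% inside against 47.6% and 58.0% outside. Gaps took up 2.28%, 3.66% and 2.21% of its span without WT 1, WT 2 and WT 5. The inside values of these libraries therefore rest on little sequence. The low share of gaps on chromosome 8 rested on WT 4 and WT 3: it was 24.7% without WT 4 and 12.8% without WT 3, against 2.20% with all 5, and between 2.21% and 3.66% without any other library. The inside values of WT 2, WT 3 and WT 4 on chromosome 8 largely restate these rises and are not separate evidence. On chromosome 8, 34.7% of the span was covered by 1 library alone, and 74.8% was covered by WT 4. Chromosome 1, the second lowest, depended less on 1 library, with 14.3% in gaps without WT 1, 10.5% without WT 3 and 8.40% to 8.44% without any other.

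**Figure D4:**
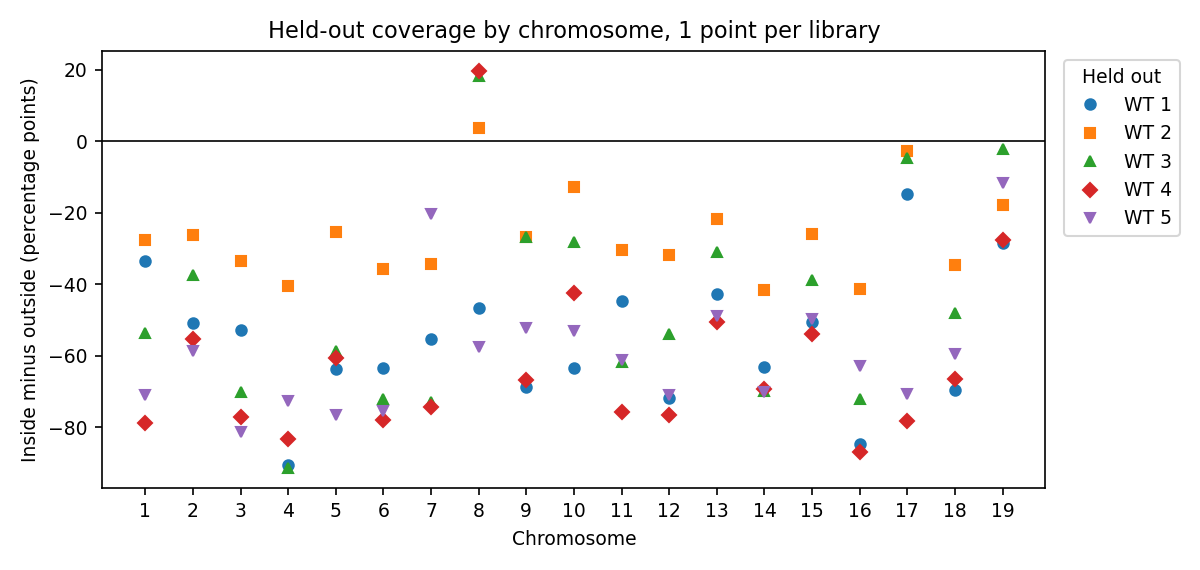
Coverage by the held-out library inside gaps made from the other 4, minus that in the rest of the span (vertical axis, percentage points), by chromosome, with 1 point for each held-out library. The points for WT 2, WT 3 and WT 4 on chromosome 8 are the 3 above 0.

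The 6 gaps of chromosome 8 were small. The longest, chr8:19719600-20514000 (794 kb), was the one gap of the 277 at which all 5 libraries came within 50 kb of both edges. It was followed by 20698000 to 21097800 (400 kb) and 21904400 to 22089800 (185 kb), so that 3 of the 6 lay within a few megabases. The others were 55563400 to 55851400 (288 kb), 69867400 to 70061000 (194 kb) and 72245400 to 72634600 (389 kb). Such gaps with close edges were rare. In only 6 of the 277 did 4 or more libraries come within 50 kb of both edges, 4 of them under 400 kb. The exception in size was chr9:12996000-16605000, of 3.61 Mb. These were chosen after their values were seen.

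By the rule, a gap ends at the nearest island of any list, so 1 library forms an edge unless island ends match exactly. Of 554 edges, 542 (97.8%) were formed by an island of 1 library, 11 by 2 and 1 by 3. That count therefore follows largely from the rule. Outward from an edge, the second library began at a median distance of 122 kb, the third at 656 kb, the fourth at 2.23 Mb and the fifth at 4.66 Mb, among the edges that had one further out on the chromosome. At 223 edges (40.3%) a second library lay within 50 kb, at 100 (18.1%) the third as well, and at 19 (3.43%) all 5. The share with 3 or more within 50 kb was 19.3% at edges of gaps under 1 Mb and 16.7% at edges of longer ones. At 10 kb outside an edge a mean of 1.13 libraries covered the position, and at 2 Mb 1.30 did, below the mean of 2.02 over the whole span. At 2 Mb outside, 51.0% of positions were again covered by no library.

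WT 2 set more edges than any other library. It formed 192 of the 554, against 121 for WT 3, 97 for WT 1, 89 for WT 4 and 68 for WT 5. WT 2 also had the most autosomal islands. Islands that formed an edge were 135 of 961 in WT 2 and 100 of 277 in WT 3. They were 82 of 472 in WT 1, 80 of 417 in WT 4 and 61 of 471 in WT 5. Relative to the size of its list, WT 3 thus had the most edge islands. The islands that formed edges were weaker than the other autosomal islands of the same library by the authors' −log10 q. Their median was 4.41 against 8.53 in WT 1, 2.89 against 4.30 in WT 2, 2.58 against 5.88 in WT 3, 4.48 against 10.5 in WT 4 and 3.77 against 8.98 in WT 5. They were also shorter in 4 libraries, with medians of 70.6 against 345 kb in WT 2, 113 against 989 kb in WT 3, 65.7 against 893 kb in WT 4 and 91.4 against 670 kb in WT 5. In WT 1 the medians were 915 and 906 kb. These islands were picked by the rule for gaps, so the values are a description.

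Many neighbouring gaps were split by stretches that no more than 1 library covered at a time. Of the 258 stretches between neighbouring gaps, 133 (51.6%) were nowhere covered by more than 1 library at a time, and their median length was 71.4 kb. A lone 200 bp window separated the gaps in 28 cases, 11 of them from WT 2 and 11 from WT 3. In 103 cases the stretch was made by 1 library alone, in 63 of these by WT 2. In contrast, 50 were covered by all 5 libraries somewhere, with a median length of 10.6 Mb (10579 kb). The longest stretch between neighbouring gaps ran from 93849601 to 177669799 on chromosome 1 (83.8 Mb), and the next from 15932601 to 93663599 on chromosome 5 (77.7 Mb). With sequence covered by at most 1 library counted as uncovered, 244 stretches made up 48.8% of the span, and the longest, chr5:95658200-145543800, measured 49.9 Mb. It contains the longest gap.

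Gene content could be described only for whole chromosomes, because the gene table is on mm10. The 9 autosomes with the highest share of gaps, chromosomes 11, 9, 19, 14, 18, 2, 6, 4 and 15, are called gap-rich below. They held 9889 of 20665 autosomal protein-coding genes (47.9%) in 45.3% of the autosomal length between the outermost END-seq peaks. That is 9.09 genes per Mb against 8.19 on the other 10. Across the 19 autosomes, Spearman's rho between share of gaps and gene density was 0.27, and Pearson's r was 0.41. This is a description over chromosomes that all come from the same 5 libraries. It says nothing on which genes lie in gaps. The share of gaps is that of the lamin A span, while genes and END-seq peaks were counted over whole chromosomes. Chromosome 7, with 14.3 genes per Mb, fell among the other 10. Its span ended at 108 Mb, while END-seq peaks reached 145 Mb on mm10. Uncovered sequence past the last island did not count towards the grouping, and its effect on the gap-rich set was not tested.

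Double-strand breaks mapped by END-seq in other libraries of the series were spread over gap-rich and other autosomes nearly in proportion to length, in both genotypes. The share of autosomal peaks on gap-rich chromosomes was 46.4%, 45.4% and 44.6% in WT 1, WT 2 and WT 3. It was 45.5%, 44.7% and 45.4% in cKO 1, cKO 2 and cKO 3. All 6 values lay close to the 45.3% of length that these chromosomes take up, and the genotypes overlapped. The WT mean was 45.5% ± 0.908 (SD, n = 3) and the cKO mean 45.2% ± 0.435 (SD, n = 3). cKO minus WT was therefore -0.324 percentage points (p = 0.8 in a two-sided exact permutation test, whose 20 assignments allow no p under 0.1). WT 1, with 1238 autosomal peaks, had the highest share, and without it the difference was 0.149. The peaks of cKO 1 carry names that start with WT-4, like those of WT 3; without cKO 1 the difference was -0.462.

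**Figure D5:**
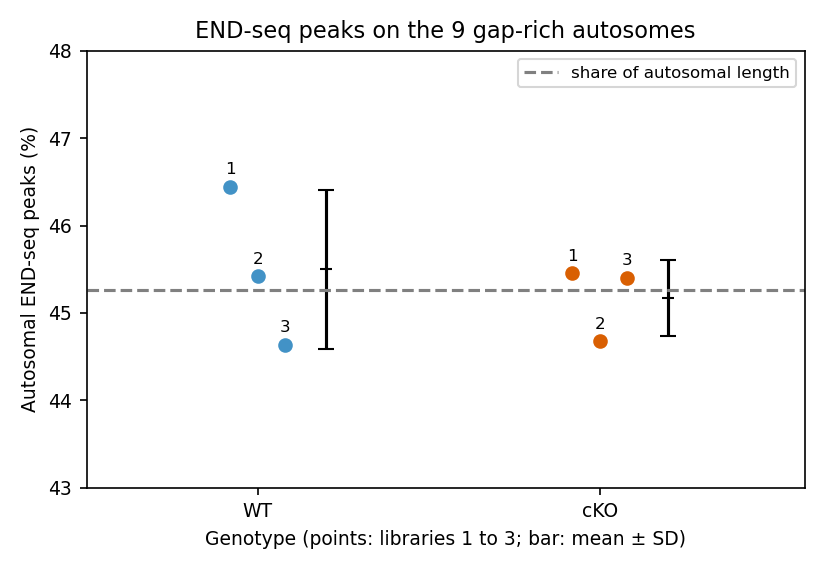
Share of autosomal END-seq peaks on the 9 gap-rich autosomes (vertical axis, %, not starting at 0) for the 3 WT and 3 cKO libraries, with mean and SD. The dashed line is the 45.3% of length these chromosomes take up, and the 6 libraries lie between 44.6% and 46.4%.

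The chromosomes with the highest and lowest share of gaps had similar peak densities. On chromosome 11, with its 66.0% in gaps, END-seq peaks numbered 0.463, 6.69 and 3.26 per Mb in WT 1, WT 2 and WT 3 and 12.9, 5.43 and 9.38 per Mb in cKO 1, cKO 2 and cKO 3. On chromosome 8 (2.20% in gaps) they numbered 0.499, 6.17 and 3.17 per Mb in WT and 12.0, 5.49 and 9.15 per Mb in cKO, in the same order. Chromosome 11 was the higher of the 2 in 4 of 6 libraries. The share of gaps and the peak density cover unlike stretches. The share is over the lamin A span, and the density is over the length between the outermost END-seq peaks. On chromosome 8 the span ended at 106 Mb, while END-seq peaks reached 129 Mb on mm10. Over the 19 autosomes, Spearman's rho between peak density and share of gaps ran from -0.279 in cKO 2 to 0.235 in cKO 1 (n = 19 chromosomes in each library). The same gap shares enter all 6 values. Peaks within gaps were not counted, since the 2 kinds of list are on different builds.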

How the data were processed

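Islands were called per library by the authors on GRCm39. Per the submitters' processing notes, SICER and DiffBind were used for lamin A and FastQC, SEACR and DiffBind on mm10 for END-seq, with no version. Which aligner was used is not stated in these sources. The deposited island lists hold a score and −log10 values without a header; the second −log10 column, never above the first and never under 1.30, was taken as q. Per the file headers, END-seq peaks carry a score, a fold over background and −log10 q. Read totals are unknown, so no interval is given.

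Intervals were used as deposited. Gaps, held-out coverage and shares per chromosome were computed in Python 3.11.15 with numpy 2.4.6, pandas 2.3.3 and scipy 1.17.1, and tested on simulated lists. Protein-coding genes per chromosome came from the RefSeq table of GRCm38.p6. Samples were grouped by title. The members, gene lists and tests were chosen with earlier results of these data known. The named regions are the 10 longest gaps, the longest of each other chromosome, and the 3 nearest the limit on either side; those of chromosome 8 and those with close edges were added after their values were seen. Placing genes and END-seq peaks in gaps was planned and not run, since no GRCm39 annotation was used. Alternatives varied the length limit, the islands kept, the span, the number of libraries allowed, the peaks kept, the chromosomes taken and each library.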

Additional observations from a re-analysis of the deposited data

Results flagged for a closer look

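Of 37 measures over the 5 lamin A libraries, 7 had 1 library far from the other 4. For a single measure, chance gives about 1 in 20. Several measures restate one quantity, such as covered and uncovered length, so the 7 are not independent and cannot be set against that rate. WT 2 accounted for 6. It had 961 autosomal islands against 472 in the nearest library, and 532 uncovered stretches of 100 kb or more of its own against 229. It covered 25.2% of chromosome 1 against 64.9%. With WT 2 held out, the other 4 libraries gave 216 gaps against 286, 126 islands of WT 2 lay wholly inside them against 60, and these made up 88.5% of the entered length against 28.5%. In WT 1, the islands that formed gap edges had a median length of 915 kb against 113 kb. No explanation was tested for these values.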

How the results depend on the processing

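Among 75 values under alternatives, 61 held (a difference its sign, a count or length within 1.5 times, other values within the spread between libraries), 11 moved further and 3 changed sign. Some could not change, such as the longest gap under another length limit, or the END-seq difference with a replicate block. Chromosome 8 counted as held at 12.8% without WT 3, against 2.20%, because the spread used was the 10.7 points of the whole span. The 61 are therefore not all evidence of stability. The gaps numbered 512 with a limit of 50 kb and 163 with 500 kb. With the span narrowed to the part that all 5 lists reach there were 203 gaps, 27.4% of it, and the longest was that of 25.2 Mb on chromosome 2. The share was 48.8% with 1 library allowed. It was 49.2% without the islands below the median −log10 q of their library, an alternative chosen after seeing the data. It was 83.9% without those below the median score; Spearman's rho of score with island length was -0.873 to -0.709 in the 5 libraries, and the cause of the move was not tested. Leaving out each library gave 222 (without WT 2) to 314 gaps and 35.1% to 40.7% of the span; the share can only rise then. The difference in held-out coverage ran from -62.1 to -48.9 points, and no such test can pass 0.05 with 5 libraries or fewer. The cKO minus WT difference in END-seq share was 0.512 points with lists of equal length (1238 peaks), 0.229 with 5 gap-rich chromosomes, and -0.756 to 0.149 with a library left out; the cause was not tested. With the replicate number as a block it was -0.324 (exact p = 0.75). Same-numbered END-seq libraries deviated together with r of 0.251, 0.00941 and 0.0823 over 19 chromosomes. Not every library correlated best with its own number. With so few libraries in each genotype, these correlations cannot decide whether the numbers pair them. END-seq hit rates of genes in gaps and gene starts in gaps were not run. With read totals unknown, the effect of depth on the islands, those of WT 2 among them, was not measured.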

Other observations

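The rule left out chromosome X. By the same rule it had 68 gaps adding up to 21.3 Mb, 12.8% of its span, with a median of 172 kb and none above 1.26 Mb. WT 1 covered 79.9% of the span of X, WT 4 44.2%, WT 2 18.5%, WT 5 13.6% and WT 3 10.8%. Without WT 1, gaps made up 35.6% of X, and without any other library 13.0% to 14.6%.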
